A study of Mus musculus with 9 samples.

Results

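The comparison was between whole pancreata of mouse embryos labelled as Grg3 Grg4 mutants and pancreata of embryos labelled as Grg3 mutants, and it asked what the added Grg4 label changes. It used 6 of the 9 libraries of the series, chosen by their titles: 3 titled Pdx1:Cre;Grg3 and 3 titled Pdx1:Cre;Grg3Grg4. The remaining 3 libraries, titled Pdx1:Cre alone, are controls, and they entered the model for a shared estimate of the spread. All 3 groups were taken at stage e18.5, late in gestation, on a mixed C57BL6 background, with 3 embryos per genotype, and all carried Pdx1:Cre, in which the Pdx1 promoter, active in the early pancreatic epithelium, drives the recombinase. Each library held the RNA of a whole organ, so cells outside the Pdx1 lineage, such as vessels, mesenchyme and blood, contributed to it. In such bulk samples fewer cells of a type and less RNA per cell cannot be told apart. The sources used here do not describe the Grg3 and Grg4 alleles.

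Groucho proteins, encoded by the Tle genes in mammals, are co-repressors: they do not bind DNA, and are brought to genes by transcription factors such as Hes, Runx, Tcf, Nkx and Fox proteins, where they help to keep transcription low. Grg3 is the product of Tle3 and Grg4 the product of Tle4. In the developing pancreas, partners of Groucho proteins include factors that set the fate of endocrine cells, the hormone-producing cells of the islets.

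Gene counts of the 6 libraries summed to between 46817453 and 62744499. All 3 Grg3 Grg4 libraries were from male embryos, judged by Xist and Ddx3y, whereas Grg3 replicate 1 was male and Grg3 replicates 2 and 3 were female, so sex and genotype are partly confounded. On the first principal component of the 6 libraries, which held 34.8% of the variance, Grg3 Grg4 replicate 2 lay at 77.6, apart from 5.67 and 6.12 in replicates 1 and 3 and from -38.2 to -19.2 in the Grg3 libraries. Its 23 tested markers of skeletal and cardiac muscle summed to 3231 CPM (counts scaled to a common library total of 1e+06), against 109 and 23.2 CPM in Grg3 Grg4 replicates 1 and 3 and 35.8 to 76.1 CPM in the Grg3 libraries. Markers of the pancreas were high in all libraries: the acinar protease precursor Cpa1 was at 9423 to 20015 CPM and Ins2 at 654 to 2354 CPM in the 6 compared.

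Only a small share of genes differed past the test. Of 19166 genes tested, 36 had a Benjamini-Hochberg adjusted p under 0.05 in the quasi-likelihood test of edgeR, which is 0.188% of the genes. Of these, 25 were higher in the Grg3 Grg4 libraries (0.13% of the genes) and 11 were lower (0.0574%). All 36 had no overlap between the 3 Grg3 Grg4 and the 3 Grg3 libraries, a separation that 21.1% of all tested genes showed, 11.8% higher and 9.3% lower. The adjusted threshold left out many genes with a small unadjusted p: 3319 genes (17.3%) had an unadjusted p under 0.05, of which 1843 were higher (9.62%) and 1476 lower (7.7%). The log2 change was under 1 in size for 21 of the 36 genes and above 1 for 15, and 27 of the 36 are protein-coding.

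**Figure D1:**
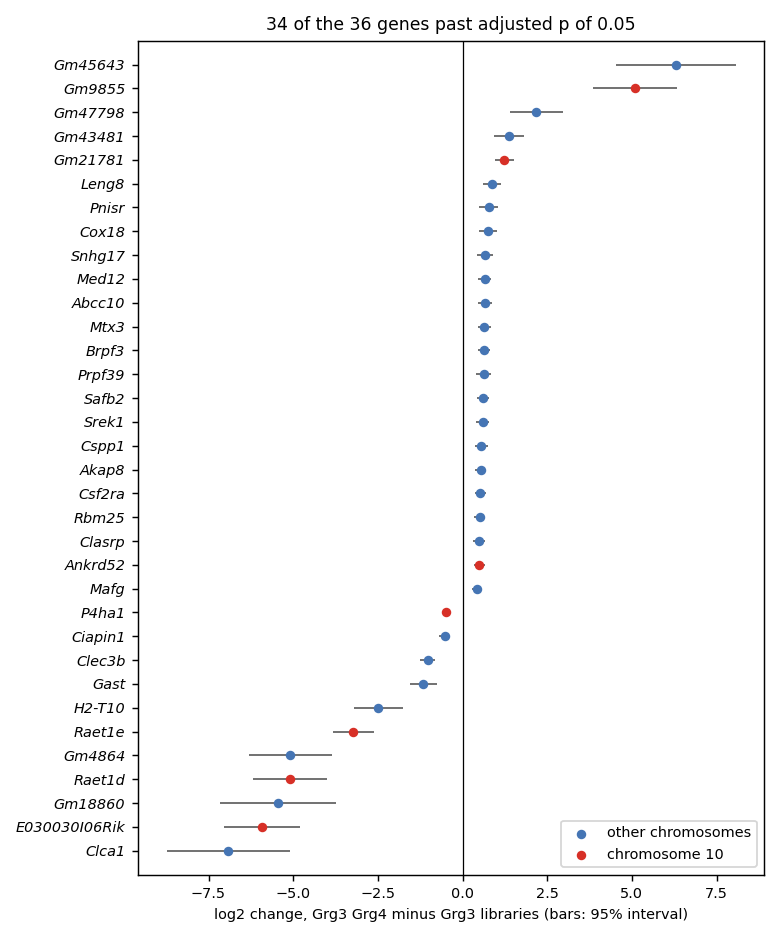
Log2 change of 34 of the 36 genes past an adjusted p of 0.05 in the Grg3 Grg4 libraries relative to the Grg3 libraries (points), with 95% intervals (bars). The 23 rises shown are mostly under 1 on the log2 scale, and 7 of the genes shown, in red, lie on chromosome 10.

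The count of called genes depended on single libraries. It was 6 without Grg3 replicate 1, 9, 11 and 10 without Grg3 Grg4 replicates 1, 2 and 3, 13 and 11 without control replicates 2 and 3, and 49 without Grg3 replicate 2. With embryo sex added to the same edgeR model, 4 genes were called, among them Raet1e, E030030I06Rik and Raet1d. Those 4 genes were called under all 19 alternative settings. Together with Clec3b they were also the 5 genes called whichever library was left out, and the other 31 lost the call without at least 1 library. Over the alternatives their edgeR adjusted p reached 0.172.

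The targeted genes come first, since they bear on the labels. Neither passed the test between the mutant groups. Tle4 was at 9.83, 13.0 and 13.8 CPM in the Grg3 libraries and at 10.7, 15.5 and 8.63 CPM in the Grg3 Grg4 libraries. The libraries labelled as Grg4 mutant therefore overlapped those without the label, with a log2 change of -0.07 ± 0.20 (SE; 95% interval -0.53 to 0.38; edgeR adjusted p = 0.886, n = 3 per group). The change turned positive without Grg3 replicate 3 (0.02), without Grg3 Grg4 replicate 3 (0.10) and with sex as a term (0.08). The controls were at 7.68 to 7.85 CPM, below all 6 mutant libraries. A count over a whole gene does not show whether an exon is missing, and whole-organ RNA includes cells without Cre, so these values do not check the labels.

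Tle3 was at 148, 167 and 145 CPM in the Grg3 libraries and 131, 126 and 146 CPM in the Grg3 Grg4 libraries, and the groups overlapped (log2 change -0.19 ± 0.09, edgeR adjusted p = 0.31). The controls had 63.1 to 67.7 CPM, below every library labelled as Grg3 mutant. None of the 6 tested members of the Groucho family passed the test. Tle2 had the smallest p of the family and lay higher in each Grg3 Grg4 library, at 68.2, 57.3 and 74.0 CPM against 43.0, 46.6 and 49.7 CPM (log2 change 0.52 ± 0.11, edgeR adjusted p = 0.0804). Tle1 and Aes, a short family member that lacks the WD-repeat domain, had log2 changes of -0.06 and -0.12. The transcription factors known to recruit Groucho proteins, a list of 33 genes, had 32 members tested and 0 called. Of these, 7 lay above and 25 below 0, with a median log2 change of -0.22 against -0.003 over all genes tested. Foxa2, a pioneer factor of endoderm, had a log2 change of -0.33 (edgeR adjusted p = 0.217), and the liver and pancreas factor Foxa1 had -0.04 (adjusted p = 0.905). Foxa1 was at 10.5 to 14.4 CPM in the Grg3 libraries and 11.4 to 13.5 CPM in the Grg3 Grg4 libraries. Its controls were at 0.0209 to 0.0417 CPM, so both mutant groups lay far above them.

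The liver marker list, 28 tested genes, had 0 called, 18 above and 10 below 0 and a median of 0.25, which ranged from -0.44 with sex as a term to 1.47 without Grg3 replicate 1. Albumin (Alb) was at 636, 37.9 and 220 CPM in the Grg3 libraries and 257, 362 and 811 CPM in the Grg3 Grg4 libraries, which overlap, and its log2 change of 0.68 had an edgeR adjusted p of 0.689 (-0.13 with sex as a term). The controls of Alb were at 2.37 to 5.47 CPM, below both mutant groups.

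A group of 3 neighbouring genes on chromosome 10 fell together. They lie within 261090 bases, from 22113050 to 22374139 on GRCm38, and are E030030I06Rik (22113050 to 22149270, minus strand), Raet1e (22158569 to 22374139, plus strand) and Raet1d (22360552 to 22374139, plus strand). Raet1d and Raet1e encode RAE-1 family ligands of NKG2D, an activating receptor of natural killer and T cells, and E030030I06Rik has no function stated here. Raet1d lies inside the annotated span of Raet1e, and the family members are close copies, so the split of reads among them is uncertain. Their promoter windows are shown because these genes fell together: 300 bases of RefSeq on GRCm38.p6, from 250 before to 50 after the start of the gene, 5′ to 3′ on the gene's strand, at chr10:22149221-22149520 for E030030I06Rik, chr10:22158319-22158618 for Raet1e (the first of 2 entries) and chr10:22361644-22361943 for Raet1d. The starts are those of RefSeq. For Raet1d the RefSeq start lies inside the gene span given above, so its whole window lies after 22360552. Capitals mark a TATAAA match.
E030030I06Rik: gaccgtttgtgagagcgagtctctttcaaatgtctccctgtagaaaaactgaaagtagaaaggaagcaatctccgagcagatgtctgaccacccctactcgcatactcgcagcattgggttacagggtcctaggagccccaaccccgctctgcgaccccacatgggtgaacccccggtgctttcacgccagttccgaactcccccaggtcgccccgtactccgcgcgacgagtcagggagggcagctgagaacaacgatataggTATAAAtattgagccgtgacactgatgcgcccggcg
Raet1e: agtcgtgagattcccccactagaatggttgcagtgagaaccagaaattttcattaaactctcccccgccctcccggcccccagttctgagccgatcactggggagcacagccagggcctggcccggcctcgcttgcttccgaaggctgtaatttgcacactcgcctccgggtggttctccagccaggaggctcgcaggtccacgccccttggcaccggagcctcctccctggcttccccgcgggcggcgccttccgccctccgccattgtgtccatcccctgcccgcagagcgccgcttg
Raet1d: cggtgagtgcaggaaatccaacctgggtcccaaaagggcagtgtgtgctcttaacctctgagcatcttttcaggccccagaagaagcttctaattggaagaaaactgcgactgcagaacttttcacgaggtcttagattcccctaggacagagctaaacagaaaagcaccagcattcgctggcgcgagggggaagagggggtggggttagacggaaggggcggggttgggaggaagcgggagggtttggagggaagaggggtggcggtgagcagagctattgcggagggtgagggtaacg
On either strand, TATAAA, the core of the TATA box, was found in the window of E030030I06Rik and not in those of Raet1e and Raet1d. The match lies within the 50 bases after the start, not before it, so it is a match of sequence and does not show a TATA box in use. The TATAAA sequence occurs in 13.6% of 32851 RefSeq promoter windows of this length. TGTTTAC, a core of sites for Fox factors, and CTTTGAT, one for Tcf and Lef factors, were found in none of these 3 windows, and occur in 3.65% and 3.73% of all windows. The G and C content was 56.7% for E030030I06Rik, 65.3% for Raet1e and 56.3% for Raet1d.

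E030030I06Rik was at 3.93, 3.42 and 3.30 CPM in the Grg3 libraries and at 0.0721, 0.0882 and 0 CPM in the Grg3 Grg4 libraries, a sum of 627 counts against 10. It fell by 5.91 ± 0.50 on the log2 scale (edgeR adjusted p = 0.00219). Raet1e was at 1.68, 1.98 and 2.25 CPM against 0.162, 0.221 and 0.245 CPM (log2 change -3.22 ± 0.27, edgeR adjusted p = 0.00219). Raet1d summed to 344 counts in the Grg3 libraries and 9 in the Grg3 Grg4 libraries, a ratio of 37.3 with an exact 95% interval of 19.4 to 82.2 that covers counting error only (edgeR adjusted p = 0.00477). The controls were at 3.41 to 4.22 CPM for E030030I06Rik, 2.58 to 2.88 CPM for Raet1e and 1.34 to 2.03 CPM for Raet1d, so the Grg3 Grg4 libraries lay below both other groups. The other 4 tested genes of the window were not called. Gm5421, a processed pseudogene within the span of Raet1e, had a log2 change of 0.29 (edgeR adjusted p = 0.514) and the NKG2D ligand gene H60b had -0.02 (adjusted p = 0.993). Within 5 Mb on both sides, 62 genes were tested and only these 3 were called, and 21.0% of the 62 had no overlap between the groups, against 21.1% over all genes.

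Chromosome 10 held 8 of the 36 called genes, among 892 tested there, a share of 0.897% against 0.188% over all genes. Besides Raet1e, E030030I06Rik and Raet1d, they included the noncoding gene Gm21781, the processed pseudogene Gm9855, P4ha1 and Ankrd52, 4 of the 8 being higher and 4 lower. The genes named here are spread along the chromosome from Gm21781 at 4391587 to Ankrd52 at 128377115, and the median log2 change of the chromosome was -0.03. Chromosome 17 followed with 5 of 887 tested genes (0.564%). Tle3 lies on chromosome 9 and Tle4 on chromosome 19, which held 1 called gene each, Clec3b and Csf2ra. The embryos were of mixed background, and whether stretches of chromosome from different strains track with the genotypes was not tested.

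**Figure D2:**
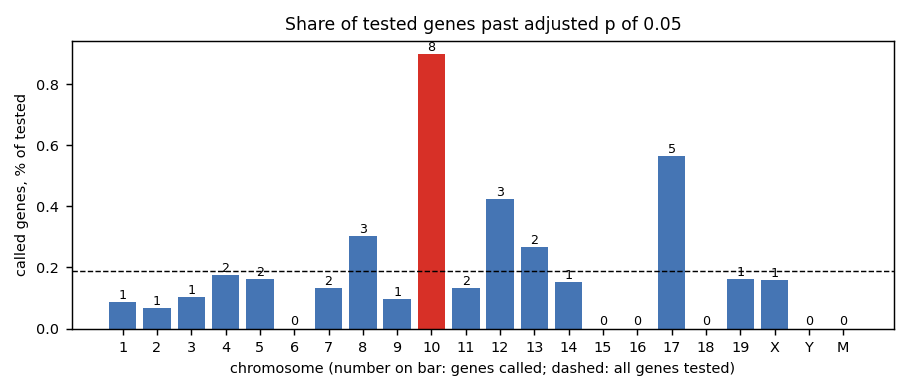
Share of the tested genes of each chromosome with an edgeR adjusted p under 0.05 between the Grg3 Grg4 and Grg3 libraries (bars, in percent), the number of called genes above each bar, and the share over all genes (dashed line). Chromosome 10, in red, has the highest share, 0.897%.

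Gm21781 was at 4.13, 4.67 and 4.34 CPM in the Grg3 libraries and 9.88, 10.6 and 10.4 CPM in the Grg3 Grg4 libraries, with controls at 4.03 to 4.84 CPM. It rose by 1.23 ± 0.13 (log2; edgeR adjusted p = 0.00731) and was called under 17 of 19 alternatives. Gm9855 was at 0.0686 to 0.486 CPM in the Grg3 libraries and 6.08 to 11.8 CPM in the Grg3 Grg4 libraries (log2 change 5.09 ± 0.55, edgeR adjusted p = 0.00794), with controls at 0.545 to 0.770 CPM. A processed pseudogene copies another gene's transcript, so its reads are uncertain. The same holds for Gm4864 on chromosome 12 and Gm18860 on chromosome 8, which were higher in the Grg3 libraries than in both other groups. Gm4864 was at 2.32 to 2.77 CPM in the Grg3 libraries, 0.0294 to 0.144 CPM in the Grg3 Grg4 libraries and 0.132 to 0.314 CPM in the controls (edgeR adjusted p = 0.00794). Gm18860 summed to 338 counts against 7, a ratio of 47.1 with an exact 95% interval of 22.6 to 118.

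Clec3b encodes tetranectin, a secreted plasminogen-binding protein found in mesenchymal matrix and plasma, and it fell in all 3 Grg3 Grg4 libraries. It was at 53.8, 61.8 and 54.2 CPM in the Grg3 libraries, 26.5, 27.9 and 28.8 CPM in the Grg3 Grg4 libraries, and 42.3 to 54.1 CPM in the controls. It fell by 1.03 ± 0.10 on the log2 scale (95% interval -1.25 to -0.80, edgeR adjusted p = 0.00525). The call held under 18 of 19 alternatives and was lost with sex as a term (-0.91, adjusted p = 0.0561). The mesenchyme and matrix list had 0 of 30 members called, 10 above and 20 below 0 and a median of -0.20. That median was -0.002 without Grg3 replicate 2, which held the highest summed level of the list among the Grg3 libraries. The collagen-binding proteoglycan Lum had a log2 change of -0.81 (edgeR adjusted p = 0.0964).

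**Figure D3:**
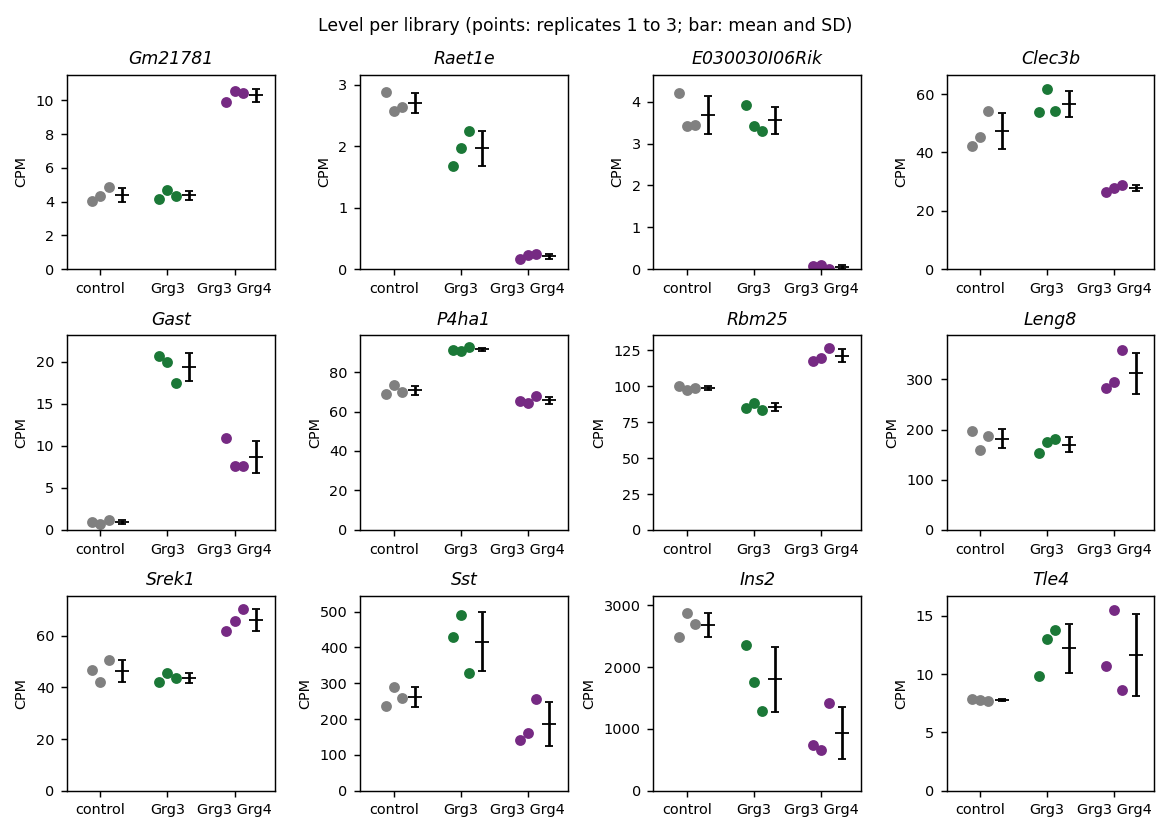
Level of 12 genes in CPM in each library (points, replicates 1 to 3), with the mean and SD of each group (bars). Gm21781 rises and E030030I06Rik, Raet1e and Clec3b fall in all 3 Grg3 Grg4 libraries, while Tle4 and Ins2 overlap between the mutant groups.

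Gast and Clca1, genes of gut hormone and mucus cells, fell with the Grg4 label, from levels in the Grg3 libraries that lay above the controls. Gast, the precursor of gastrin, a hormone of stomach G cells that the fetal pancreas also makes, was at 20.7, 19.9 and 17.5 CPM in the Grg3 libraries, 10.9, 7.62 and 7.61 CPM in the Grg3 Grg4 libraries and 0.712 to 1.12 CPM in the controls. It fell by 1.15 ± 0.18 (log2; edgeR adjusted p = 0.0478) between the mutant groups, and both mutant groups lay above the controls, with log2 changes of 4.39 and 3.23 (edgeR adjusted p = 1.03e-05 and 0.000149). Its call was lost without any 1 of the 9 libraries, with adjusted p up to 0.167. Clca1, a secreted protein of goblet cells, summed to 170 counts in the Grg3 libraries, 1 in the Grg3 Grg4 libraries and 1 in the controls (edgeR adjusted p = 0.015 between the mutant groups). The ratio of 166 has an exact 95% interval of 29.4 to 6586. The stomach list had 13 members tested and Gast as the 1 called, with 3 above and 10 below 0 and a median of -0.71, and the intestine list had Clca1 as the 1 called of 20, with a median of -0.21 that ran from -0.48 without Grg3 replicate 2 to 0.005 with at least 1 CPM in 3 libraries. In the stomach list the mucin-associated peptide Tff2 was at 80.3, 57.3 and 52.1 CPM in the Grg3 libraries and 30.9, 44.1 and 30.4 CPM in the Grg3 Grg4 libraries (log2 change -0.85, edgeR adjusted p = 0.115). Unlike those of Gast, the controls of Tff2 lay above both mutant groups, at 116, 134 and 89.4 CPM.

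The genes P4ha1 and Ciapin1 fell by small amounts. P4ha1, a subunit of the prolyl hydroxylase that modifies collagen, was at 91.4, 90.6 and 92.5 CPM in the Grg3 libraries and 65.2, 64.5 and 67.8 CPM in the Grg3 Grg4 libraries, where the controls had 69.0 to 73.3 CPM. It fell by 0.48 ± 0.06 on the log2 scale (edgeR adjusted p = 0.0282). Ciapin1, which works in the assembly of iron-sulphur proteins, was at 36.8 to 40.1 CPM against 25.4 to 28.1 CPM (log2 change -0.52 ± 0.07, edgeR adjusted p = 0.0306), with controls at 27.5 to 28.2 CPM. For both genes the Grg3 libraries lay above controls (edgeR adjusted p = 0.028 and 0.0188), whereas the Grg3 Grg4 libraries differed from controls by -0.10 and -0.05 on the log2 scale. These comparisons share libraries with the one between the mutants. P4ha1 was the 1 called gene of 28 in the hypoxia and glycolysis list, which had 5 members above and 23 below 0 and a median of -0.13 (-0.21 without Grg3 replicate 2 and -0.09 without Grg3 replicate 3). Its glucose transporter Slc2a1 was at 96.0, 80.2 and 77.7 CPM against 48.7, 60.6 and 69.0 CPM (log2 change -0.51, edgeR adjusted p = 0.116). The last of the falls was H2-T10, a nonclassical class I histocompatibility gene annotated as a polymorphic pseudogene. It was at 1.48 to 2.52 CPM in the Grg3 libraries, 0.323 to 0.388 CPM in the Grg3 Grg4 libraries and 0.264 to 0.440 CPM in the controls (log2 change -2.49 ± 0.33, edgeR adjusted p = 0.026).

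Among the 25 rises were 8 genes of RNA processing, grouped here after their values were seen. How many of all tested genes belong to such a class was not counted, so the 8 do not measure an excess. Rbm25, Srek1, Pnisr and Clasrp encode serine and arginine rich proteins of the splicing machinery, Prpf39 a protein of the U1 snRNP, Safb2 and Akap8 nuclear matrix proteins that bind RNA or chromatin, and Leng8 a nuclear protein related to the mRNA export factor GANP. Rbm25 was at 85.1, 88.7 and 83.6 CPM in the Grg3 libraries and 118, 120 and 127 CPM in the Grg3 Grg4 libraries, above the controls at 97.4 to 100.1 CPM. It rose by 0.50 ± 0.07 (log2; edgeR adjusted p = 0.0294). Leng8 was at 154, 175 and 182 CPM against 283, 295 and 359 CPM, and rose by 0.88 ± 0.12 (edgeR adjusted p = 0.0304). Safb2 was at 81.0 to 85.0 CPM against 118 to 137 CPM, and rose by 0.60 ± 0.08 (adjusted p = 0.0299). Srek1, Pnisr, Clasrp, Prpf39 and Akap8 rose by 0.59, 0.77, 0.50, 0.62 and 0.53 on the log2 scale (adjusted p of edgeR between 0.0311 and 0.0499).

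A list of 46 SR proteins, SR-related proteins and the CLK kinases that phosphorylate them, drawn up after these calls were seen, describes how far the pattern went. Of the 46, 4 were called, all higher, 44 lay above 0 and 2 below, and 38 (82.6%) were higher in every Grg3 Grg4 library than in any Grg3 library, where 11.8% of all genes were. The median log2 change was 0.35, against -0.003 over all genes tested, and 0.30 to 0.37 over the alternatives. The summed level of the list was 4400, 4494 and 4701 CPM in the Grg3 libraries, 6017, 5885 and 6252 CPM in the Grg3 Grg4 libraries and 4599 to 4977 CPM in the controls. Srrm2, a large scaffold protein of nuclear speckles, was at 364, 365 and 339 CPM against 575, 623 and 610 CPM (log2 change 0.76 ± 0.13, edgeR adjusted p = 0.0518). Pnn, Luc7l2 and Nktr had log2 changes of 0.66, 0.53 and 0.70 with adjusted p between 0.0505 and 0.0526. The controls of Nktr, at 97.5 to 130 CPM, overlapped its Grg3 Grg4 libraries at 108 to 126 CPM and lay above its Grg3 libraries. For Srrm2 the controls, at 394 to 564 CPM, lay between the mutant groups. Controls of Pnn and Luc7l2 overlapped the Grg3 libraries. Tra2b, a splicing regulator, had a log2 change of 0.02, and Srsf9 and Srsf12 were the 2 members below 0, at -0.07 and -0.32. Srrm2, Pnn, Luc7l2, Nktr, Tra2b, Srsf9 and Srsf12 were chosen after their values were seen.

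Further measures moved with these genes. Reads overlapping no annotated gene made up 3.86%, 4.07% and 4.42% of the reads in the Grg3 Grg4 libraries, 2.45%, 3.02% and 2.55% in the Grg3 libraries and 2.58% to 3.09% in the controls. The 5 nuclear long noncoding RNAs Malat1, Neat1, Meg3, Kcnq1ot1 and Miat formed a list also made after seeing the data. All were higher in every Grg3 Grg4 library than in any Grg3 library, where 11.8% of all genes were. Of the 5, 0 were called, and their log2 changes were 0.58 to 1.10. The 610 tested genes annotated as lincRNA had a median of 0.17. The summed level of the 5 was 1681 to 2306 CPM in the Grg3 Grg4 libraries and 1304 to 1762 CPM in the controls, which overlap. Malat1 was at 120 to 162 CPM in the Grg3 libraries and 205 to 232 CPM in the Grg3 Grg4 libraries. Its controls were at 164, 362 and 587 CPM. Neat1, the RNA that builds paraspeckles, was at 130, 160 and 235 CPM against 262, 299 and 457 CPM (log2 change 0.96, edgeR adjusted p = 0.117). The controls of Neat1 were at 173 to 218 CPM. Of 77 cytoplasmic ribosomal protein genes, 0 were called, 74 lay below 0 and the median was -0.26. No overlap was seen for 30 (39%), all lower, where 9.3% of all genes were lower with no overlap. That list, too, was made after seeing the data. Its summed level was 42674, 36321 and 45201 CPM in the Grg3 libraries and 37143, 32297 and 35628 CPM in the Grg3 Grg4 libraries. The controls were at 34683 to 36881 CPM. Relative to controls, the list median was 0.22 in the Grg3 libraries and -0.04 in the Grg3 Grg4 libraries. Called noncoding genes within the spans of other genes were higher as well: Gm43481 within Gtf2i (log2 change 1.37 ± 0.20) and Gm47798 within Ngly1 (2.18 ± 0.35), with edgeR adjusted p of 0.0325 and 0.0499. Gm45643, within Chd9, differed in another way. It summed to 3 counts in the Grg3 libraries, 259 in the Grg3 Grg4 libraries and 637 in the controls, so the Grg3 libraries were low against both other groups (ratio between the mutant groups 88.5, exact 95% interval 30.0 to 432, edgeR adjusted p = 0.0223). Its controls were at 2.37 to 8.29 CPM, above the Grg3 Grg4 libraries at 1.18 to 1.92 CPM. The sources used here give no strand setting for the counting, so reads of these genes and of their hosts cannot be told apart, and whether the content of nuclear or unspliced RNA had a part in the rises was not tested.

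**Figure D4:**
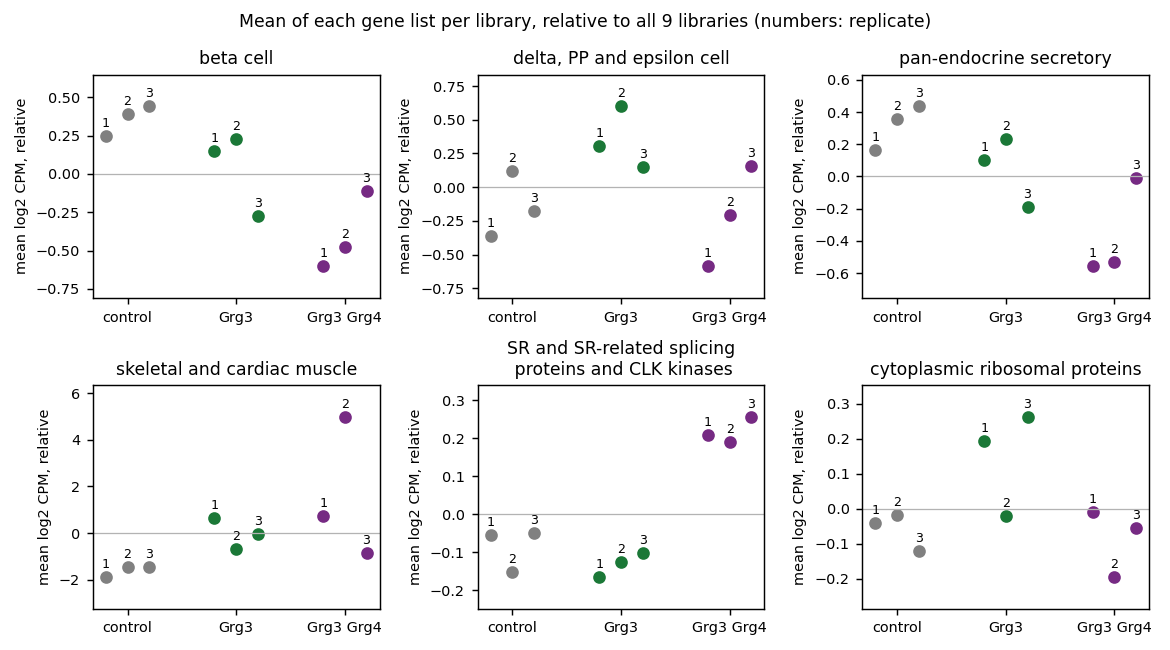
Mean log2 CPM of the members of 6 gene lists in each library, relative to the mean of each gene over all 9 libraries (points, numbered by replicate). The 3 Grg3 Grg4 libraries lie above all others for splicing proteins, the beta cell means of the mutant groups overlap, and Grg3 Grg4 replicate 2 is alone at 4.97 for muscle.

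Other rises covered transcription and organelles. Med12, an X-linked subunit of the Mediator kinase module, was at 42.3, 46.6 and 42.2 CPM in the Grg3 libraries and 69.0, 66.9 and 71.1 CPM in the Grg3 Grg4 libraries. It rose by 0.66 ± 0.09 (log2; edgeR adjusted p = 0.026), and by 0.75 with sex as a term, where the adjusted p was 0.0743. Brpf3, a scaffold of histone acetyltransferase complexes, was at 32.4 to 37.8 CPM against 54.0 to 54.5 CPM (log2 change 0.63 ± 0.08, edgeR adjusted p = 0.0195), with controls at 41.3 to 45.9 CPM. Mafg, a small Maf partner of CNC transcription factors, rose by 0.42 ± 0.07 (edgeR adjusted p = 0.0478). Ankrd52, a regulatory subunit of protein phosphatase 6 whose gene overlaps Nabp2 and Slc39a5, rose by 0.49 ± 0.07 (adjusted p = 0.0316). Its controls, at 84.5 to 93.8 CPM, lay near the Grg3 Grg4 libraries at 92.5 to 93.7 CPM. The Grg3 libraries, at 63.9 to 69.4 CPM, were low against controls (log2 change -0.42, edgeR adjusted p = 0.0257). Mtx3, a metaxin of the mitochondrial outer membrane, and Cox18, which inserts a subunit of cytochrome c oxidase, rose by 0.64 and 0.75, the transporter Abcc10 by 0.66, the centrosomal protein gene Cspp1 by 0.56, the GM-CSF receptor gene Csf2ra by 0.52 and the snoRNA host gene Snhg17 by 0.67, with edgeR adjusted p between 0.0304 and 0.0485.

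Endocrine genes lay lower in the Grg3 Grg4 than in the Grg3 libraries on balance, but none passed the test. Relative to controls, the beta cell and endocrine secretion lists had medians of -0.79 and -0.70 in the Grg3 Grg4 libraries and -0.23 and -0.26 in the Grg3 libraries. The delta, PP and epsilon, alpha and progenitor lists had medians of -0.055, 0.003 and -0.125 relative to controls in the Grg3 Grg4 libraries. In the Grg3 libraries these 3 lists had medians of 0.37, 0.09 and 0.13. The progenitor list thus lay about as far from controls in both mutant groups, on opposite sides. The delta, PP and epsilon cell list had 15 members tested, 0 called, 1 above and 14 below 0, and a median log2 change of -0.71. The groups did not overlap for 5 members (33.3%), all lower, against 9.3% of all genes. Somatostatin (Sst), the hormone of delta cells, was at 428, 491 and 328 CPM in the Grg3 libraries and 141, 162 and 257 CPM in the Grg3 Grg4 libraries, with controls at 237 to 291 CPM (log2 change -1.15 ± 0.22, 95% interval -1.65 to -0.66, edgeR adjusted p = 0.0715). The gut and islet hormone Pyy was at 206, 228 and 166 CPM against 82.9, 97.9 and 126 CPM (log2 change -0.97, edgeR adjusted p = 0.0518), and the retinol carrier Rbp4 at 123, 104 and 91.8 CPM against 58.3, 52.6 and 70.3 CPM (-0.82, adjusted p = 0.0518). In these 3 genes the Grg3 Grg4 libraries lay below every Grg3 library. The controls were at 154 to 184 CPM for Pyy and at 59.2 to 71.3 CPM for Rbp4. Pancreatic polypeptide (Ppy) and ghrelin (Ghrl) had log2 changes of -0.85 and -0.70 (edgeR adjusted p = 0.104 and 0.119), also with no overlap.

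The beta cell list had 29 members tested, 0 called, 5 above and 24 below 0, 9 with no overlap (31%), all lower, against 9.3% of all genes, and a median of -0.45, which ran from -0.59 without Grg3 Grg4 replicate 3 to -0.32 without Grg3 replicate 2. Ins2 was at 2354, 1757 and 1299 CPM in the Grg3 libraries and 734, 654 and 1418 CPM in the Grg3 Grg4 libraries, so Grg3 Grg4 replicate 3 lay above Grg3 replicate 3. Its log2 change was -0.95 ± 0.30 (95% interval -1.61 to -0.29, edgeR adjusted p = 0.16), and that of Ins1 was -0.96 ± 0.32 (adjusted p = 0.178). Controls were at 2489 to 2873 CPM for Ins2, above all 6 mutant libraries. Mafa, a transcription factor of mature beta cells, had a log2 change of -0.93 (edgeR adjusted p = 0.119). Ucn3, a peptide of maturing beta cells, was at 3.64, 2.95 and 1.86 CPM against 0.757, 0.779 and 1.47 CPM (-1.50, adjusted p = 0.116). Gjd2, a gap junction protein, and Nnat had -0.91 and -0.82 (adjusted p = 0.081 and 0.0804).

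The alpha cell list had 15 tested members, 0 called and a median of -0.34. Glucagon (Gcg) was at 774, 819 and 715 CPM against 485, 388 and 925 CPM, so that Grg3 Grg4 replicate 3 was the highest of the 6 (log2 change -0.36 ± 0.27, edgeR adjusted p = 0.524). Of 30 genes of endocrine secretion, 0 were called, 28 lay below 0 and the median was -0.44, with Scg2, a granin, at -0.94 (adjusted p = 0.0815). Of 24 genes of endocrine progenitors and islet transcription factors, 0 were called, 23 lay below 0 and the median was -0.35. The share with no overlap in either direction was 6.67% for the alpha, 16.7% for the secretion and 12.5% for the progenitor list. Over all genes it was 21.1%. Neurog3, the factor that starts endocrine differentiation, was at 32.2, 35.6 and 34.8 CPM in the Grg3 libraries and 22.5, 15.6 and 30.4 CPM in the Grg3 Grg4 libraries, against 15.3 to 23.1 CPM in the controls (log2 change -0.58 ± 0.22, edgeR adjusted p = 0.211). Pdx1, which the Cre driver is taken from, was at 34.3, 36.5 and 34.9 CPM against 27.7, 22.7 and 31.8 CPM (-0.36 ± 0.11, adjusted p = 0.155). Without Grg3 Grg4 replicate 2 the medians were -0.73 for the delta, PP and epsilon list, -0.34 for beta, -0.32 for secretion and -0.19 for progenitors. Without Grg3 Grg4 replicate 3 they were -0.88, -0.59, -0.68 and -0.57 in the same order. With sex as a term the median of the delta, PP and epsilon list was -0.44 and that of the alpha list -0.21.

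**Figure D5:**
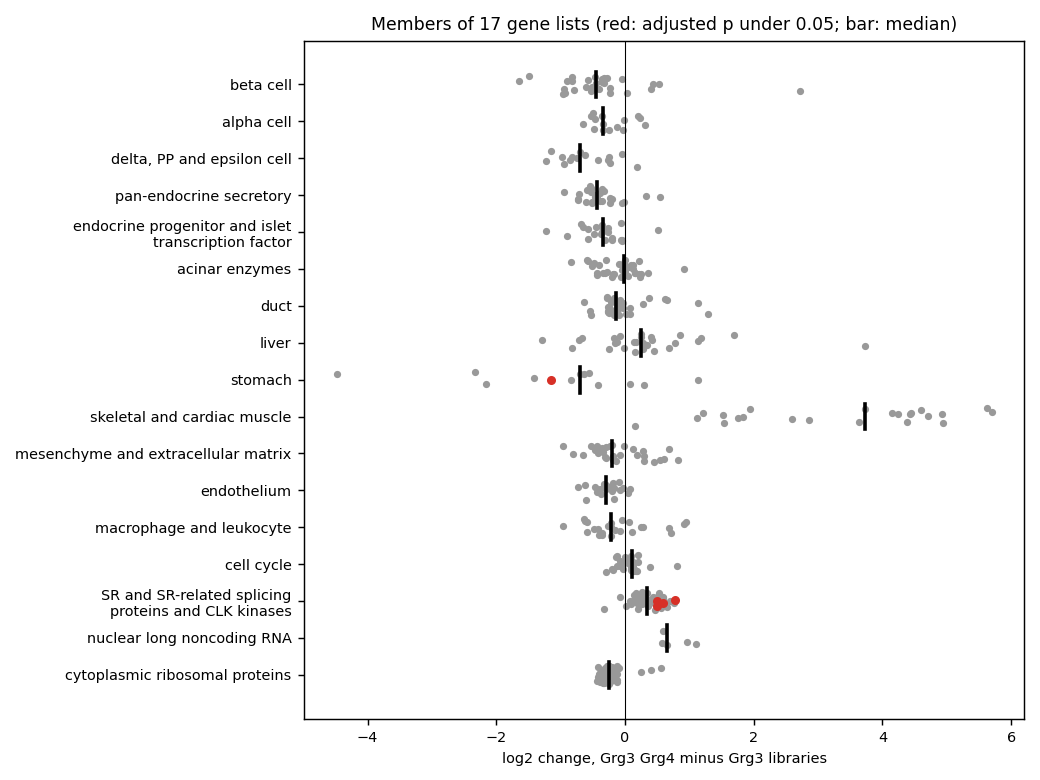
Log2 change of each tested member of 17 gene lists in the Grg3 Grg4 libraries relative to the Grg3 libraries (points; red where the edgeR adjusted p is under 0.05), with the median of each list (bars). The endocrine lists have medians of -0.71 to -0.34 and no called member, and the muscle list has a median of 3.72.

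No gene of the exocrine lists passed the test. Of 42 tested acinar enzyme genes, 0 were called, 16 lay above and 26 below 0, and the median of -0.02 turned to 0.21 without Grg3 replicate 3. Ctrb1, chymotrypsinogen, was at 76424 to 135335 CPM in the Grg3 libraries and 77040 to 94666 CPM in the Grg3 Grg4 libraries (log2 change -0.29, 95% interval -0.88 to 0.30, edgeR adjusted p = 0.603). Ptf1a, the acinar lineage factor, had -0.36 (adjusted p = 0.368). The duct list had 0 of 33 members called and a median of -0.14 (-0.28 without Grg3 Grg4 replicate 3 and -0.06 without Grg3 Grg4 replicate 1), and the duct factor Sox9 had -0.10 ± 0.13 (adjusted p = 0.726). Aqp1, a water channel of duct and endothelial cells, was at 107, 159 and 124 CPM in the Grg3 libraries and 80.9, 84.4 and 84.4 CPM in the Grg3 Grg4 libraries (log2 change -0.65, edgeR adjusted p = 0.0715). Rbpj, the DNA-binding partner of Notch, was at 29.6, 54.8 and 42.4 CPM against 28.5, 17.8 and 16.4 CPM (-1.02, adjusted p = 0.103), and Notch1 at 78.3 to 80.0 CPM against 106 to 121 CPM (0.49, adjusted p = 0.119). The Notch list as a whole had 0 of 24 called and a median of -0.13, which was 0 without Grg3 replicate 2. Mki67, a marker of dividing cells, was at 138, 161 and 142 CPM against 284, 254 and 231 CPM (log2 change 0.80 ± 0.17, edgeR adjusted p = 0.081), and the 32 cell cycle genes had 0 called and a median of 0.10, running from 0.02 without Grg3 replicate 1 to 0.16 without Grg3 Grg4 replicate 3.

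Muscle genes were high in a single library. All 23 tested muscle genes lay above 0 with a median of 3.72, and 0 were called. Without Grg3 Grg4 replicate 2, 13 lay above and 10 below 0 and the median was 0.10. The fetal myosin Myh3 was at 3.64, 0.769 and 1.11 CPM in the Grg3 libraries and 4.07, 278 and 0.673 CPM in the Grg3 Grg4 libraries. Endothelial genes had 0 of 23 called, 21 below 0 and a median of -0.29, which was -0.07 without Grg3 replicate 2. Macrophage and leukocyte genes had 0 of 25 called and a median of -0.22, which was -0.59 without Grg3 Grg4 replicate 1 and -0.02 without Grg3 Grg4 replicate 2.

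The depth and number of the libraries set how far a missed call can be read. The median width of the 95% interval to each side of a log2 change was 0.394. In simulated data of 18564 genes built on these libraries, the edgeR test found 31% of the genes changed by 1.5-fold and 66% of those changed by 2-fold, and 7 of its 104 calls were false. The simulation was a single draw with 100 genes changed at each size, all at 1 CPM or more in the Grg3 libraries. Noise was drawn for each gene on its own, with no effect of sex and no library set apart. These shares therefore describe the simulation and may not hold for the libraries compared.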

How the data were processed

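RNA of whole mouse pancreas was sequenced in 9 libraries. The authors deposited unnormalized read counts by gene symbol, 1 table a library. Tools listed in the submitters' processing notes, without roles, are HISAT2, HTSeq, bedtools, DESeq2, FastQC and Trim Galore, and the builds listed are GRCm38 and mm10. Versions, strand setting and annotation: not given in the sources used here. Per library, 5 entries that name no gene (28.5% to 33.2% of the reads, mostly reads aligned to several places) were kept out of library sizes and tests.

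Genes were kept by filterByExpr (minimum count 10, minimum total 15), scaled by TMM and tested 2-sided with the quasi-likelihood F test (edgeR 4.0.16, R 4.3.3). All 9 libraries entered, with 1 mean per group, no covariate and 6 residual degrees of freedom. P-values were adjusted by the Benjamini-Hochberg method over 19166 genes. CPM are counts per 1e+06 after TMM scaling, and SE is the log2 change divided by the square root of F. For a gene with 1 to 9 counts in a group, a ratio of counts with an exact 95% interval is given. Intervals cover counting error only. Principal components used log2 CPM with a prior count of 2. Embryos are the replicates, per the design text, and no pair of libraries of a group agreed within counting noise (chi-square per degree of freedom 17.4 to 207). GENCODE M21 on GRCm38 placed 99.1% of the tested genes by symbol and may not be the annotation counted with. RefSeq held promoter windows for 21 of the 36 called genes.

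The comparison and its 42 gene lists were chosen with earlier results of these data known, and 3 of the lists (splicing proteins, nuclear RNAs, ribosomal proteins) after these calls were seen. The text names called genes, Tle and study genes, and of each list up to 4 members of smallest p and 2 of highest level, with exceptions stated; some genes that the rule takes are not reported here. Alternatives were DESeq2 1.42.0 size factors and Wald test, limma 3.58.1 voom, acinar genes left out, other filters, the replicate number as a block, sex as a term, the 6 libraries alone, X and Y genes left out, and each library left out in turn. List medians under these settings were added after seeing the data. The edgeR test was tested on simulated data.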

Additional observations from a re-analysis of the deposited data

How the results depend on the processing

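The 36 called genes (25 higher, 11 lower) became 228 (144 and 84) with no filter on low counts, 75 (56 and 19) with at least 1 CPM in 3 libraries, 10 (4 and 6) with only the 6 libraries compared, 4 (1 and 3) with sex as a term and 1019 (611 and 408) with the Wald test of DESeq2. They became 24 with limma voom, of which 13 were higher. The cause of these differences was not tested, apart from fewer or more genes or samples entering. Leaving out 1 library at a time gave 6 to 49 calls, 2 to 26 higher and 4 to 23 lower. Of the 36 genes, 31 lost their call without at least 1 library, 6 had no call in any of those 9 fits, and each kept its sign wherever it was tested. With the replicate number as a block, 11 genes were called (5 higher, 6 lower), 9 of them among the 36. The correlations of the deviations of same-numbered libraries were -0.004, 0.051 and 0.026, and those of differently numbered libraries -0.063 to 0.056. They gave no sign that the numbers pair the embryos, but with 3 libraries per group they cannot exclude it. The uncalled log2 changes of Tle4, Foxa1, Sox9 and Alb changed sign. Tle4 was at 0.079 with sex as a term and at -0.34 to 0.10 with 1 library left out, and Alb was at -0.13 with sex as a term. With 1 library left out, Foxa1 was at -0.17 to 0.049 and Sox9 at -0.28 to 0.033. The median log2 change of all genes ran from -0.012 to 0.012 over these fits.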

Other observations

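Genes of nerve and glia lay below 0 on balance. Of 23 tested, 0 were called (edgeR), 5 lay above and 18 below 0, and the median log2 change was -0.40, running from -0.67 without Grg3 Grg4 replicate 2 to -0.19 without Grg3 replicate 2. The neuronal hydrolase Uchl1, also made by endocrine cells, had -0.88 (edgeR adjusted p = 0.119), the neuronal tubulin Tubb3 -0.73 (adjusted p = 0.133) and the glial protein S100b -0.80 (adjusted p = 0.119), while Ret, the receptor of enteric nerve precursors, had 0.55 (adjusted p = 0.101).

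Genes of cholesterol synthesis had 0 of 24 called, 21 above and 3 below 0 and a median of 0.21, running from 0.08 without Grg3 replicate 1 to 0.40 without Grg3 replicate 3. Immediate early and heat shock genes had 0 of 27 called, 4 above and 23 below 0 and a median of -0.28 (-0.43 without Grg3 Grg4 replicate 3), with Ier2 at -0.43 (adjusted p = 0.0913). Of 13 genes encoded by the mitochondrial genome, 0 were called, 12 lay below 0 and the median was -0.32, running from -0.49 without Grg3 replicate 3 to -0.15 without Grg3 replicate 2. The share with no overlap between the groups was 4.17% for cholesterol synthesis, 14.8% for immediate early and heat shock and 7.69% for mitochondrial genes. For nerve and glia it was 21.7%, and over all genes 21.1%.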
